A study of Mus musculus with 6 samples.

Results

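The 6 libraries of sorted germinal center (GC) B-cells also held a small number of Cd8-positive T cells, 108 of 22939 barcodes. A barcode was taken as such a cell when it had at least 300 detected genes and under 10% mitochondrial UMIs (unique molecular identifiers, 1 per captured transcript), at least 2 of the 5 genes Cd3d, Cd3e, Cd3g, Trac and Trbc2, at most 1 UMI of Cd79a and of Lyz2, no UMI of Ms4a1, and at least 1 UMI of Cd8a plus Cd8b1. The genes of this rule chose the cells, so their levels are given as a description, with no test. The same rule without any Cd8 UMI gave 417 Cd8-negative T cells, which served as the comparator.

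All libraries came from mice that carry Cγ1-Cre. This Cre is expressed from the Ighg1 locus, which B-cells transcribe as the GC reaction begins, so it is not directed at T cells. There were 3 libraries from Smc3 wt/wt mice and 3 from heterozygous Smc3 wt/- mice, and Smc3 encodes a core ATPase subunit of the cohesin ring. Per the methods of the study, splenic cells were sorted from mice that had been immunized with sheep red blood cells, and the labels name the sorted cells as GC B cells. The methods name more Smc3 wt/wt mice than there are Smc3 wt/wt libraries and as many Smc3 wt/- mice as libraries, without tying a mouse to a library, and the age of the mice was not given, so the p-values below measure the spread between libraries, which may in part be technical.

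CD8 T cells recognize peptides on MHC class I through an αβ T cell receptor, with the CD8α and CD8β chains as co-receptor. Naive cells recirculate through spleen and lymph nodes by means of Ccr7 and S1pr1, among others, whereas memory cells regain access to inflamed tissue and hold a ready stock of Ccl5 transcript and cytotoxic granule components. GCs consist mainly of B-cells, their T cells are for the most part CD4 follicular helper cells, and CD8 T cells belong for the most part to the surrounding T cell zone and red pulp.

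The co-receptor genes lie next to each other on chromosome 6 (GRCm38), Cd8b1 at chr6:71322788-71337494 and Cd8a at chr6:71373427-71379173, both on the + strand and 35932 bases apart. Cd8b1 was the more often captured chain, with 305 UMIs against 107 of Cd8a in the 108 cells. Both chains were seen in 51 cells, Cd8b1 alone in 47 and Cd8a alone in 10. The ratio of Cd8b1 to Cd8a UMIs lay between 1.91 (wt/- 1) and 4.07 (wt/wt 2), and the share of cells with both chains between 23.5% (wt/wt 1) and 75.0% (wt/- 2). At the edge of the rule, 31 cells held exactly 1 Cd8 UMI and 77 held 2 or more, up to 16. All 5 T cell genes were detected in 60 cells, 4 in 33, 3 in 11 and 2 in 4. Another 13 barcodes met the T cell and Cd8 criteria and stayed outside because of Cd79a, Ms4a1 or Lyz2.

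The markers of the T cell receptor complex were present in every library. Cd3g, a CD3 signalling chain, averaged 11.1 to 16.7 UMIs per 10000 per cell and library, and Cd3d averaged 10.4 to 15.9. Trac, the constant gene of the receptor α chain, lay between 6.26 and 16.1. Receptor variable segments were all but absent, with 7 UMIs over 5 of 163 Trav and Trbv features, led by Trav4-4-dv10 and Trav8d-2 with 2 UMIs each. The next 3 (Trav2, Trbv12-2 and Trbv13-1) had 1 UMI each. Clonal composition could therefore not be read from these 3′ libraries.

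Cd8 UMIs were rare in B-cells. Of 17514 B-cells with at least 3 Cd79a and 1 Ms4a1 UMIs, 36 had a Cd8 UMI (0.206%, and 0.135% to 0.238% per library), although the median B-cell held 5254 UMIs against 1846 in the Cd8-positive T cells. Cd4 UMIs were found in 4 of the 108 cells, and all 4 had exactly 1 Cd8 UMI. In the Cd8-negative T cells 16.4% to 38.9% per library had a Cd4 UMI. Cells with 1 Cd8 UMI differed from the others in further genes. Nkg7, a granule membrane protein of cytotoxic lymphocytes, was detected in 13 of 31 (41.9%) of them and in 66 of 77 (85.7%) with 2 or more. Izumo1r, which encodes the folate receptor FR4 of regulatory and anergic CD4 T cells, went the other way. It was in 8 of 31 (25.8%), 8 of 77 (10.4%) and none of the 30 cells with 5 or more Cd8 UMIs. By counting error in the pooled cells alone, the last allows a share of cells with a UMI of up to 10.0%. Tnfrsf4, another gene of CD4 T cells, was in 6 of 31, 4 of 77 and 3 of the 30, and the regulatory T cell factor Foxp3 in 0, 3 and 1. Median depth was 1589 and 1957 UMIs in the first and second class, so these shares are not free of depth.

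Cd8-positive T cells made up 1.60%, 0.364% and 0.289% of the retained barcodes in wt/wt libraries 1, 2 and 3, and 0.769%, 0.518% and 0.415% in wt/- libraries 1, 2 and 3. The means were 0.752 ± 0.737% and 0.567 ± 0.182% (SD, n = 3 each). The groups overlapped, and the exact permutation test over libraries gave a two-sided p of 1. Wt/wt 1 set the direction. Without it the difference, wt/- minus wt/wt, went from -0.185 to 0.241 percentage points. The total of T cells varied likewise, from 1.09% to 6.79% of retained barcodes.

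Among T cells the order was different. The Cd8-positive share was 23.6%, 24.4% and 26.5% in the wt/wt libraries and 20.7%, 13.5% and 23.3% in the wt/- libraries, so every wt/- library lay below every wt/wt library. The exact 95% binomial (Clopper-Pearson) interval of the lowest library, wt/- 2, ran from 8.45% to 20.1%, and that of wt/wt 3 from 14.9% to 41.1%. The groups did not overlap. The means of 24.8 ± 1.52% and 19.1 ± 5.04% (SD, n = 3 each) differed by -5.69 percentage points (exact permutation test over libraries, two-sided p = 0.1, the smallest that 3 against 3 can give). With the libraries paired by replicate number the wt/- library was lower in 3 of 3 pairs, and the exact sign-flip p was 0.25, the smallest that 3 pairs can give. Wt/- 2 carried much of the difference, which was -2.88 percentage points without it. The groups overlapped when 2 Cd8 UMIs were required (15.3% to 20.5% against 10.9% to 17.4%), when any Cd79a or Lyz2 UMI removed a cell, and when all cells were thinned to 1000 UMIs before the rule (16.3% to 25% against 12.5% to 20%).

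**Figure D1:**
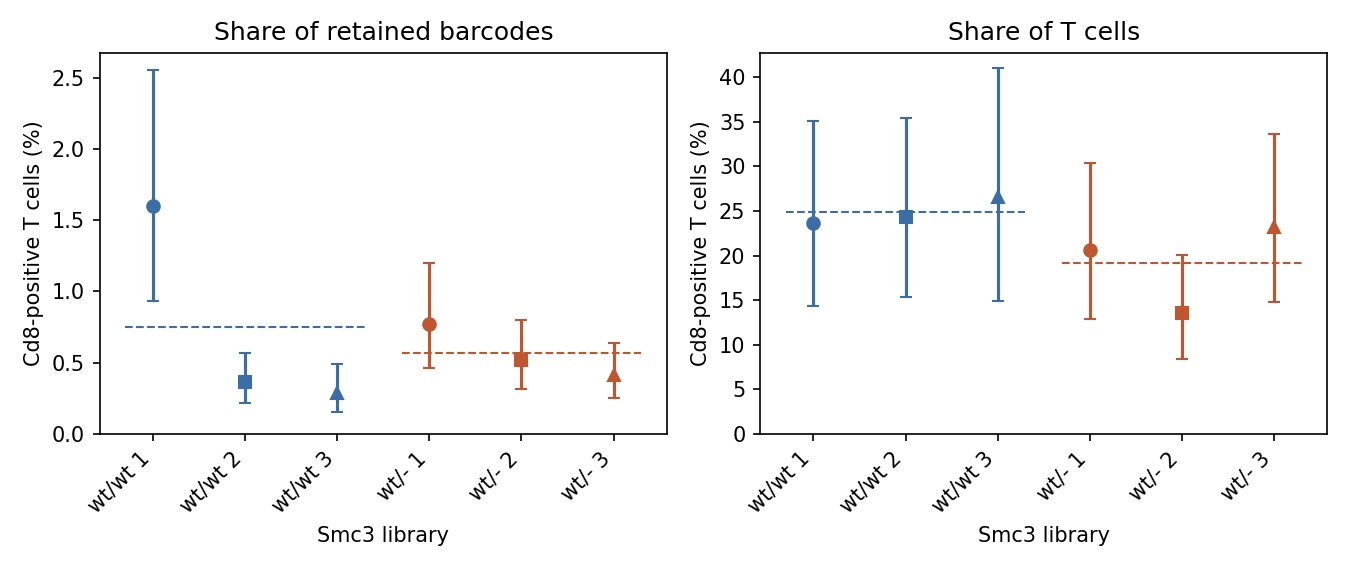
Cd8-positive T cells as a percentage of retained barcodes (left) and of T cells (right) in each library, blue for Smc3 wt/wt and orange for Smc3 wt/-. Points are libraries, bars are exact 95% binomial intervals (counting error only) and dashed lines are group means. Wt/wt 1 stands at 1.60% of retained barcodes while the other 5 libraries lie between 0.289% and 0.769%, and wt/- 2 is lowest among T cells at 13.5%.

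The cells were small in RNA content, and a few large ones carried much of the sums. The median per library was 1207, 2148 and 2347 UMIs in wt/wt and 1420, 2105.5 and 2274.5 in wt/-. Cells over 5000 UMIs numbered 9, and none of them came from wt/wt 1 or wt/- 1. A single cell of 28088 UMIs held 43.7% of all Cd8-positive T cell UMIs of wt/wt 2, and another of 38264 UMIs held 53.6% of those of wt/wt 3. Both had only 1 Cd8b1 UMI, held Cd4 UMIs (2 and 8) and Top2a UMIs (12 and 22), and were among the highest doublet scores of their library. Counts of calls, and named tested genes whose call changed, are therefore also given without the cells over 5000 UMIs, a choice made after these cells had been seen. Library totals ran from 5223325 to 35354257 UMIs. Barcode sequences shared by 2 or more libraries numbered 276 of 22661, and 3 of the Cd8-positive T cells had such a barcode, none of them shared with another Cd8-positive T cell.

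**Figure D2:**
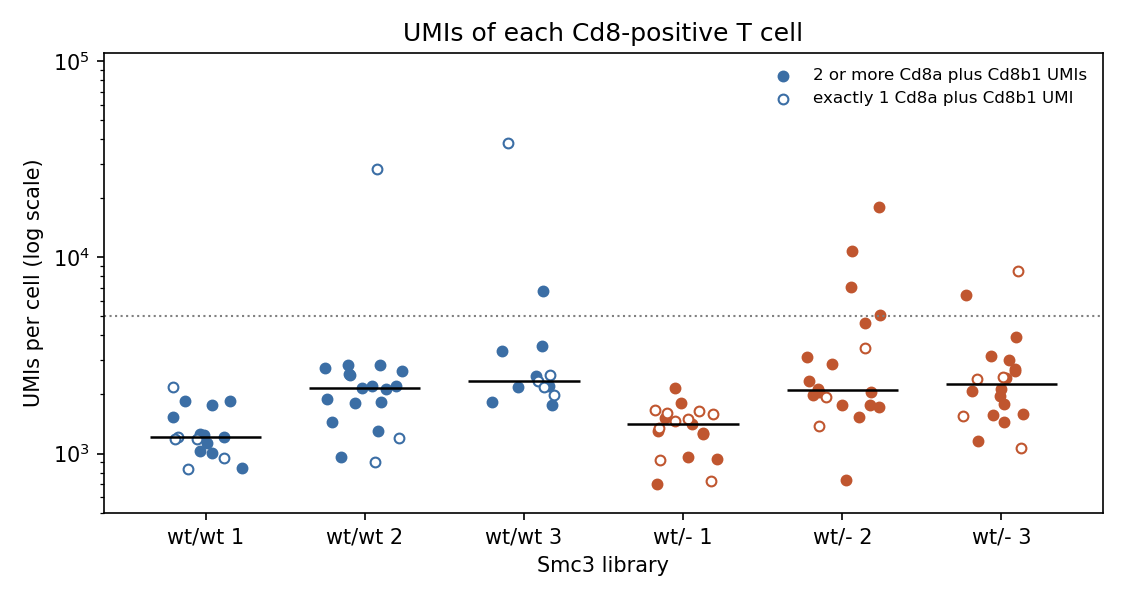
UMIs of each Cd8-positive T cell (log axis) by library, open symbols for cells with exactly 1 Cd8 UMI, a bar at the median of each library and a dotted line at 5000 UMIs. The 9 cells over the line lie in wt/wt 2, wt/wt 3, wt/- 2 and wt/- 3, and the highest cell of wt/wt 1 and of wt/- 1 reached 2189 and 2153 UMIs.

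The comparison with the Cd8-negative T cells of the same libraries asked which genes beyond the co-receptor set these cells apart. UMIs were summed per library and class and tested with edgeR with the library as a term. Of 1085 genes tested, 20 were higher in Cd8-positive T cells (1.84%) and 20 were lower (1.84%) at an edgeR adjusted p under 0.05. All 40 kept their direction in each alternative in which they were tested. Because the comparator can hold CD8 T cells of which no Cd8 UMI was captured, the differences are between classes of detection. Levels below are UMIs per 10000 UMIs of a cell, averaged over the cells of a library.

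Genes of cytotoxic cells were higher. Nkg7 (chr7:43437073-43438249) averaged 18.6, 11.8 and 6.77 UMIs per 10000 in the wt/wt and 27.8, 19.3 and 23.1 in the wt/- libraries. In the Cd8-negative T cells it averaged 2.05 to 3.95. No library of the first class overlapped with the second, and on summed counts Nkg7 was higher by 2.40 ± 0.37 on the log2 scale (edgeR estimate ± SE, adjusted p = 0.0017). After thinning every cell to 1000 UMIs, Nkg7 was detected in 62.8% of Cd8-positive T cells, 8.09% of Cd8-negative T cells and 0.0353% of B-cells, as the mean over libraries. The sums alone gave the opposite order in 1 library, wt/wt 3, in which the cell of 38264 UMIs had no Nkg7 UMI.

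Ccl5 (chr11:83525778-83530518), a chemokine stored as transcript by memory T cells, was the most abundant of these genes. It averaged 84.9, 19.3 and 20.9 UMIs per 10000 in the wt/wt libraries and 88.0, 88.5 and 51.8 in the wt/- libraries, against 2.38 to 13.6 in Cd8-negative T cells. The levels thus fell into a high set of 4 libraries and a low pair, wt/wt 2 and wt/wt 3, all above the Cd8-negative range. The log2 fold change was 2.20 ± 0.44 (edgeR adjusted p = 0.0117), and it was 2.41 ± 0.19 without the cells over 5000 UMIs. In the sums, as opposed to the means per cell, wt/wt 2 had the opposite order. A single cell held 58.4%, 52.4% and 54.8% of the Ccl5 UMIs of the wt/wt libraries.

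Of the 20 genes in the cytotoxic list, Nkg7 and Ccl5 had enough UMIs for the test, and both were called. Klrd1, which encodes the CD94 receptor chain, was too low for the test with all cells and passed the filter in some alternatives, so its levels are given as a description. It averaged 1.82 to 5.50 UMIs per 10000 in Cd8-positive and 0.268 to 1.08 in Cd8-negative T cells. Ctsw, a cathepsin of cytotoxic lymphocytes, averaged 1.94 to 5.39 against 0 to 0.680. Effector enzymes were scarce: Prf1 (perforin) was found in 6 cells, Gzmk and Gzma in 1 each, and Gzmb (granzyme B) in 4 cells, all of them in wt/- 2. A single cell held 31 of the 34 Gzmb UMIs, and the other 3 cells held 1 each. In B-cells 2 of 17514 had a Gzmb UMI.

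In the list of memory and activation genes, 2 of 8 tested members were higher and none was lower, with a median log2 fold change of 0.27 against 0.04 over all tested genes. Ly6c2 (chr15:75108158-75111970), which encodes a Ly6C surface antigen typical of memory CD8 T cells, had 6.72, 7.70 and 3.97 UMIs per 10000 in the wt/wt and 8.32, 6.46 and 5.33 in the wt/- libraries, against 0.254 to 1.81 in Cd8-negative T cells. The ranges did not meet, and the log2 fold change was 2.71 ± 0.32 (edgeR adjusted p = 0.000222). Ly6c2 was seen in only 2 to 5 Cd8-negative T cells per library. It reached the count filter through the Cd8-positive class, where it was high. Its test and its place among the 2 higher members are therefore descriptive. Ly6c1 is a close neighbour in sequence and position, so the split of reads between this pair is uncertain, but Ly6c1 stood at 0 to 0.561 UMIs per 10000. The survival gene Bcl2 lay in a narrow band of 4.20 to 5.01 in all 6 libraries, against 1.13 to 3.38, with a log2 fold change of 1.11 ± 0.21 (edgeR adjusted p = 0.0102). Cxcr3, S100a6, S100a10 and Il2rb did not pass the test. Crip1, a LIM domain protein gene, did not pass either (0.56 ± 0.18, edgeR adjusted p = 0.0997), but passed without the cells over 5000 UMIs (0.80 ± 0.14, edgeR adjusted p = 2.39e-06).

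Of 8 tested naive and homing genes 7 had positive log2 fold changes, with a median of 0.56 against 0.04 over all tested genes. Only 1 passed the test. This was Klf2 (chr8:72319033-72321656), the transcription factor that maintains S1pr1 expression. Its level was 25.3, 14.9 and 16.8 UMIs per 10000 in the wt/wt libraries and 28.3, 8.80 and 14.3 in the wt/- libraries, each above the Cd8-negative T cells of its own library (14.9, 8.79 and 12.8, then 11.4, 5.28 and 7.92). The log2 fold change was 0.95 ± 0.23 (edgeR adjusted p = 0.0366), with the opposite order in the sums of wt/wt 3. In the fit without the cells over 5000 UMIs, 129 of 709 tested genes were higher. Of the list 5 of 8 passed there: Klf2, Ccr7 (1.01 ± 0.27), Il7r (1.33 ± 0.24), Dapl1 (1.36 ± 0.22) and Lef1 (0.57 ± 0.21). With those cells included, Ccr7, Il7r, Dapl1 and Lef1 had log2 fold changes of 0.71, 0.92, 0.78 and 0.33 and did not pass. Leaving out 1 library at a time took the call of Klf2 away in 5 of 6 cases, all but wt/wt 3, and no other gene of the list was called in those 5.

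**Figure D3:**
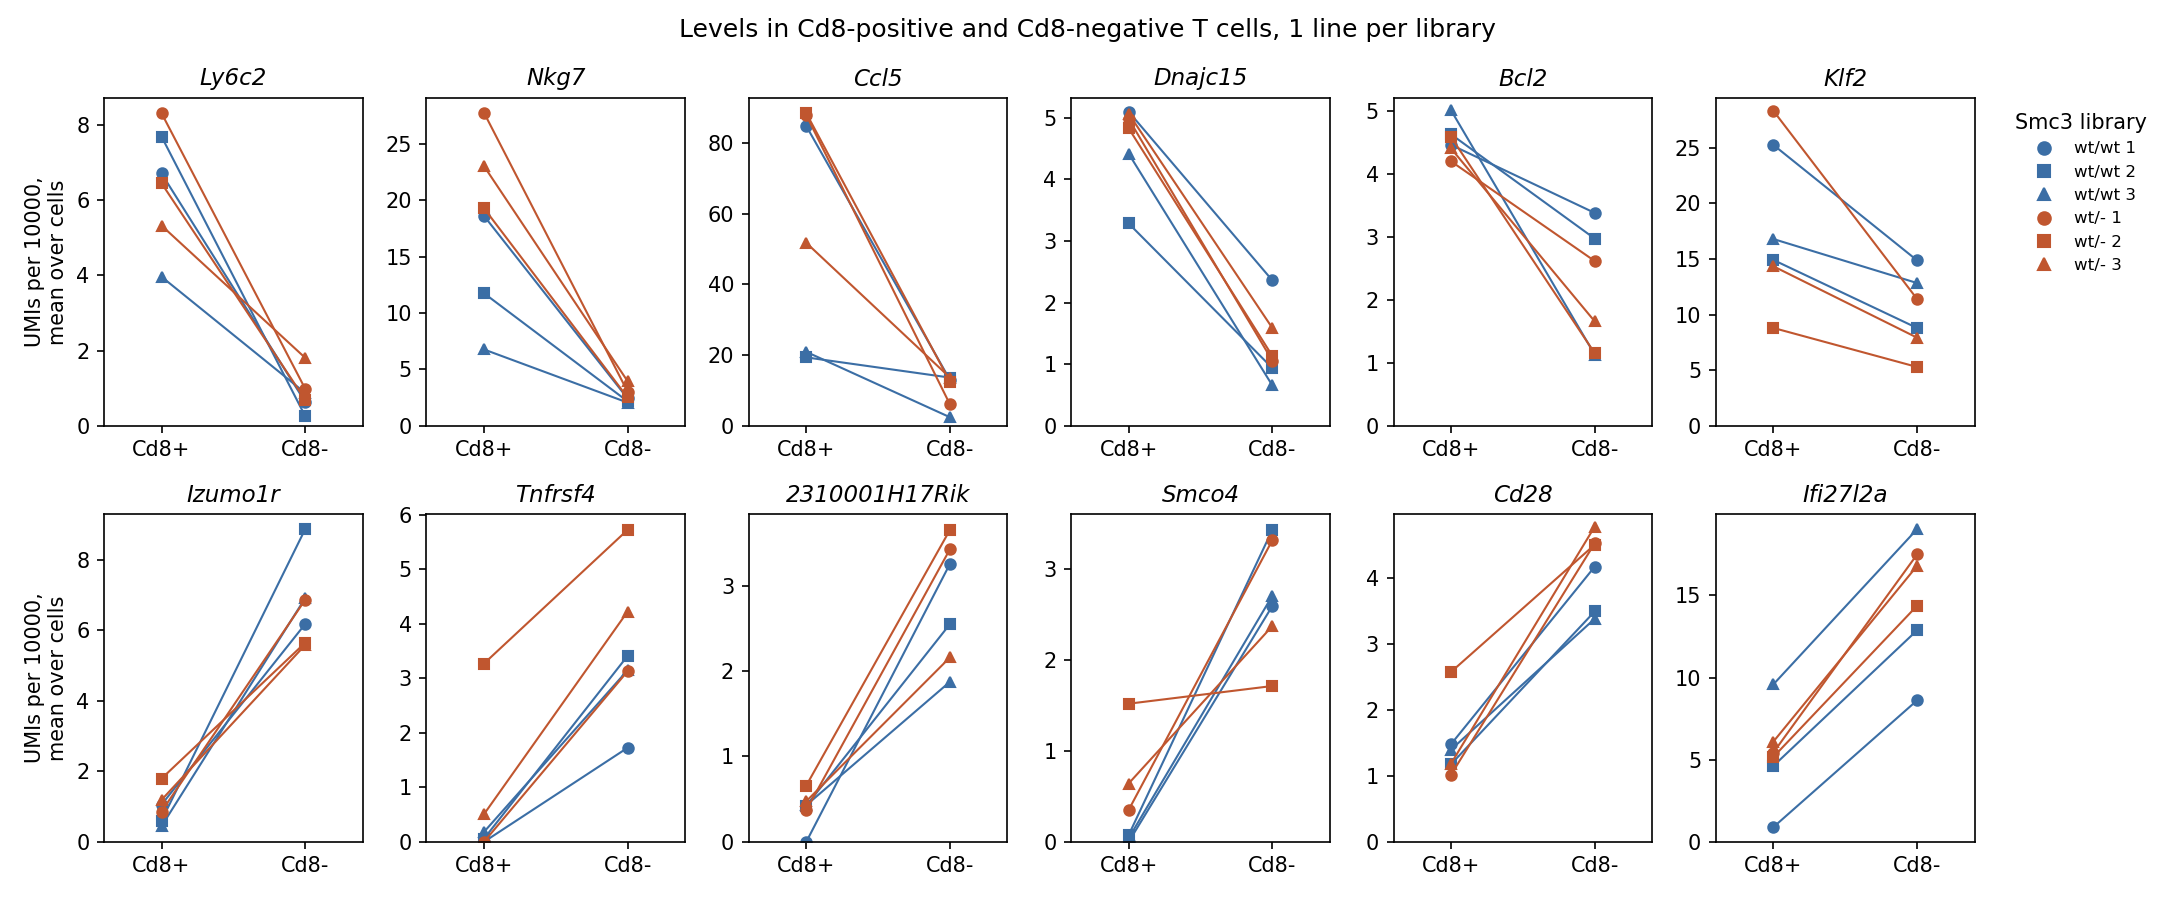
Level of 12 genes in Cd8-positive and Cd8-negative T cells, as UMIs per 10000 averaged over cells, with 1 line per library (blue for Smc3 wt/wt, orange for Smc3 wt/-). All 6 lines fall from left to right for the 6 genes of the upper row and rise for the 6 genes of the lower row, by little for Smco4 in wt/- 2 (1.52 to 1.71).

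Lower in Cd8-positive T cells were genes of CD4 helper and regulatory cells. Of 16 listed genes 4 were tested and 3 were lower, with a median log2 fold change of -1.82. Izumo1r, Tnfrsf4 and Ikzf2 were each seen in at most 6 Cd8-positive T cells of a library. They reached the count filter through the Cd8-negative class, where they were high, so this count and median are descriptive. Izumo1r had 1.06, 0.605 and 0.445 UMIs per 10000 in the wt/wt and 0.861, 1.79 and 1.19 in the wt/- libraries, against 5.58 to 8.86 in Cd8-negative T cells, a log2 fold change of -2.26 ± 0.31 (edgeR adjusted p = 0.000711). Tnfrsf4, the costimulatory receptor OX40, had a log2 fold change of -1.86 ± 0.33 (edgeR adjusted p = 0.00635). It was at 0 to 0.506 in 5 libraries and at 3.27 in wt/- 2, where 6 of the 10 positive cells lay. Ikzf2, which encodes Helios, was the third (-1.78 ± 0.40, edgeR adjusted p = 0.0294), and Sh2d1a, the SAP adaptor of T cell help to B-cells, had -1.33 ± 0.36 and did not pass (edgeR adjusted p = 0.0517). In the fit without the cells over 5000 UMIs, 58 of 709 tested genes were lower. All 4 listed genes passed there, Sh2d1a with -1.56 ± 0.30 (edgeR adjusted p = 2.28e-05). DESeq2 gave these 4 genes log2 fold changes of -2.35 (Izumo1r), -2.06 (Tnfrsf4), -2.15 (Ikzf2) and -1.49 (Sh2d1a) but no adjusted p. The inhibitory receptor Pdcd1, high on follicular helper cells, was not tested. After thinning it was seen in 0.828% of Cd8-positive and 14.8% of Cd8-negative T cells.

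In the list of co-receptor and proximal signalling genes, 2 of 11 tested members were lower and none was higher (median log2 fold change -0.44). Cd28, the main costimulatory receptor, averaged 1.48, 1.18 and 1.4 UMIs per 10000 in wt/wt and 1.02, 2.58 and 1.19 in wt/- libraries, against 3.39 to 4.79 in Cd8-negative T cells. No values met, and the log2 fold change was -1.19 ± 0.22 (edgeR adjusted p = 0.00894). Cd6, a scavenger receptor family member that tunes T cell activation, had -1.32 ± 0.30 (edgeR adjusted p = 0.0294). The kinase Lck (-0.42 ± 0.16) and the adaptor Lat (0.01 ± 0.17) did not pass. Without the cells over 5000 UMIs Thy1, a T cell surface glycoprotein, was higher (0.58 ± 0.19, edgeR adjusted p = 0.0176), as was the kinase Txk (0.78 ± 0.27, edgeR adjusted p = 0.0224). The adhesion receptor Cd2 was then lower (-0.56 ± 0.18, edgeR adjusted p = 0.0147). Of the CD8 lineage regulators 4 were tested and none was called. Runx3, which silences Cd4 in CD8 T cells, was below the filter, with thinned detection in 11% of Cd8-positive and 4.46% of Cd8-negative T cells. Zbtb7b (ThPOK), the CD4 lineage factor, averaged 0 to 0.135 UMIs per 10000 against 0.294 to 0.654.

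Genes outside the lists were called too. Dnajc15, a mitochondrial cochaperone, was higher in all 6 libraries (3.29 to 5.10 UMIs per 10000 against 0.654 to 2.36, log2 fold change 1.61 ± 0.20, edgeR adjusted p = 0.000281). The small GTPase gene Arl4c was also higher (1.36 ± 0.33, edgeR adjusted p = 0.0347), although in wt/wt 2 its mean per cell was the lower one, 1.79 against 2.65. Ifi27l2a, an interferon-induced gene and the called one of 2 tested in the type I interferon list, was lower, with 0.900, 4.62 and 9.59 in wt/wt and 5.44, 5.17 and 6.10 in wt/-, against 8.61, 12.9 and 19.0 and 17.5, 14.4 and 16.8. The classes overlapped between libraries, but within each library the Cd8-positive value was lower (log2 fold change -1.72 ± 0.20, edgeR adjusted p = 0.000222). Lower too were 2310001H17Rik (-2.29 ± 0.35), Smco4 (-2.06 ± 0.37), S100a11 (-1.20 ± 0.23), Srgn (-1.0 ± 0.20) and Rgs10 (-0.98 ± 0.22). A UMI was seen in 0 to 4 (2310001H17Rik) and 0 to 7 (Smco4) Cd8-positive T cells per library. Both reached the count filter through the Cd8-negative class, so their direction is given as a description. No member was called in the lists of cell cycle genes (7 tested, median 0.15), immediate early genes (4 tested, -0.28), T cell receptor and CD3 genes outside the rule (2 tested, -0.42) or cohesin genes (1 tested, Ctcf, 0.81). Without the cells over 5000 UMIs the chromatin protein gene Hmgb2 was lower (-0.67 ± 0.22, edgeR adjusted p = 0.0173), although its value with them was 0.15 ± 0.39. The immediate early gene Ier2 was then higher (0.75 ± 0.26, edgeR adjusted p = 0.0228, against 0.74 ± 0.26 with them). After thinning, the receptor constant gene Trbc1 was lower (-0.67 ± 0.18, edgeR adjusted p = 0.0105).

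Ribosomal protein genes formed the largest group with 1 direction. All 82 tested had a positive log2 fold change, with a median of 0.37, and 10 were called, led by Rplp0 (0.55 ± 0.12, edgeR adjusted p = 0.0256) and Rplp1 (0.52 ± 0.12, edgeR adjusted p = 0.0294). Per cell, their share of UMIs averaged 23.7%, 38.3% and 38.6% in the wt/wt and 25%, 28.4% and 33.2% in the wt/- libraries. In Cd8-negative T cells it was 18.4%, 26.6% and 30.9%, then 16.7%, 25% and 27.2%. The Cd8-positive share was thus higher in 6 of 6 libraries, while libraries differed more from each other than the classes did. Among cells of 1000 to 2500 UMIs the order was also kept in 6 of 6 libraries (23.9% to 37.4% against 17.4% to 32.4%). The number of called ribosomal genes was unstable, from 0 to 77 over the alternatives, and it was 77 without the cells over 5000 UMIs.

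**Figure D4:**
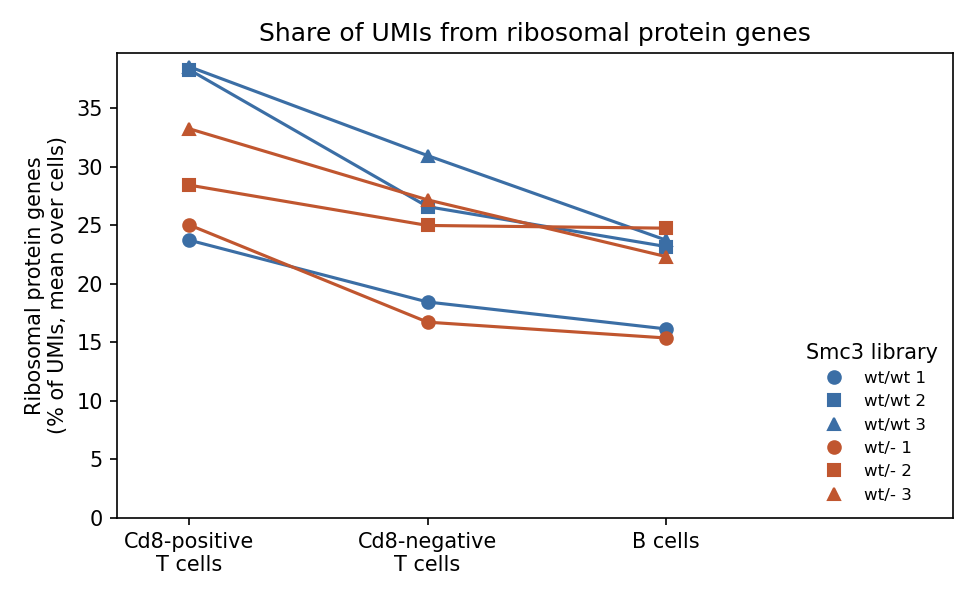
Percentage of a cell's UMIs from ribosomal protein genes, averaged over Cd8-positive T cells, Cd8-negative T cells and B-cells, with 1 line per library. Every library is highest in Cd8-positive T cells, and the replicate 1 libraries of both genotypes are lowest in all 3 classes.

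The 108 cells were not uniform. Ccl5 was detected in 42 cells, with a median of 20 UMIs and up to 136 in a cell, and 66 cells had none, while median depth was 1854.5 and 1828 UMIs in these classes. Of the 42 cells, 40 also had Nkg7, against 39 of the 66. Ly6c2 was found in 31 of 42 against 19 of 66, Il2rb, the IL-2 and IL-15 receptor β chain, in 23 against 9, and the chemokine Xcl1 in 8 against 2. Some naive genes were seen in more of the 66 cells, a comparison given without a test. Dapl1, a marker of resting naive T cells, was in 29 of them against 6 of the 42, Ccr7 in 30 against 11 and Lef1 in 39 against 15. Il7r was in 23 against 22, and Klf2 in 54 against 35, with the higher mean in the cells with Ccl5 (21.3 against 15.7 UMIs per 10000).

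As a description, at least 2 of Ccr7, Dapl1 and Lef1 were seen in 43 cells, of which 33 had no Ccl5 UMI and 6 had 5 or more. Ccl5 together with Nkg7 and Ly6c2 was seen in 31 cells, and 10 cells had neither Ccl5 nor any of the 3 naive genes. Across the 108 cells Ccl5 and Nkg7 correlated with a Pearson r of 0.521 (Spearman rho 0.528) on log values, Ccl5 and Ly6c2 with 0.387, and Ccl5 and Dapl1 with -0.352. These cells share 6 libraries and low depth, so no p-value is given. Regulatory and unconventional T cell genes were rare: Foxp3 was in 3 cells, and Trdc, the receptor δ constant gene, in 3 cells, all in wt/- 3. Top2a or Mki67, genes of dividing cells, were found in 11 cells. These include the 3 cells among the highest doublet scores, with 12, 22 and 9 Top2a UMIs. Each of them had 1 Cd8b1 UMI and no Nkg7 UMI. The cell of wt/- 3 among them also held 12 Izumo1r and 6 Tnfrsf4 UMIs.

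**Figure D5:**
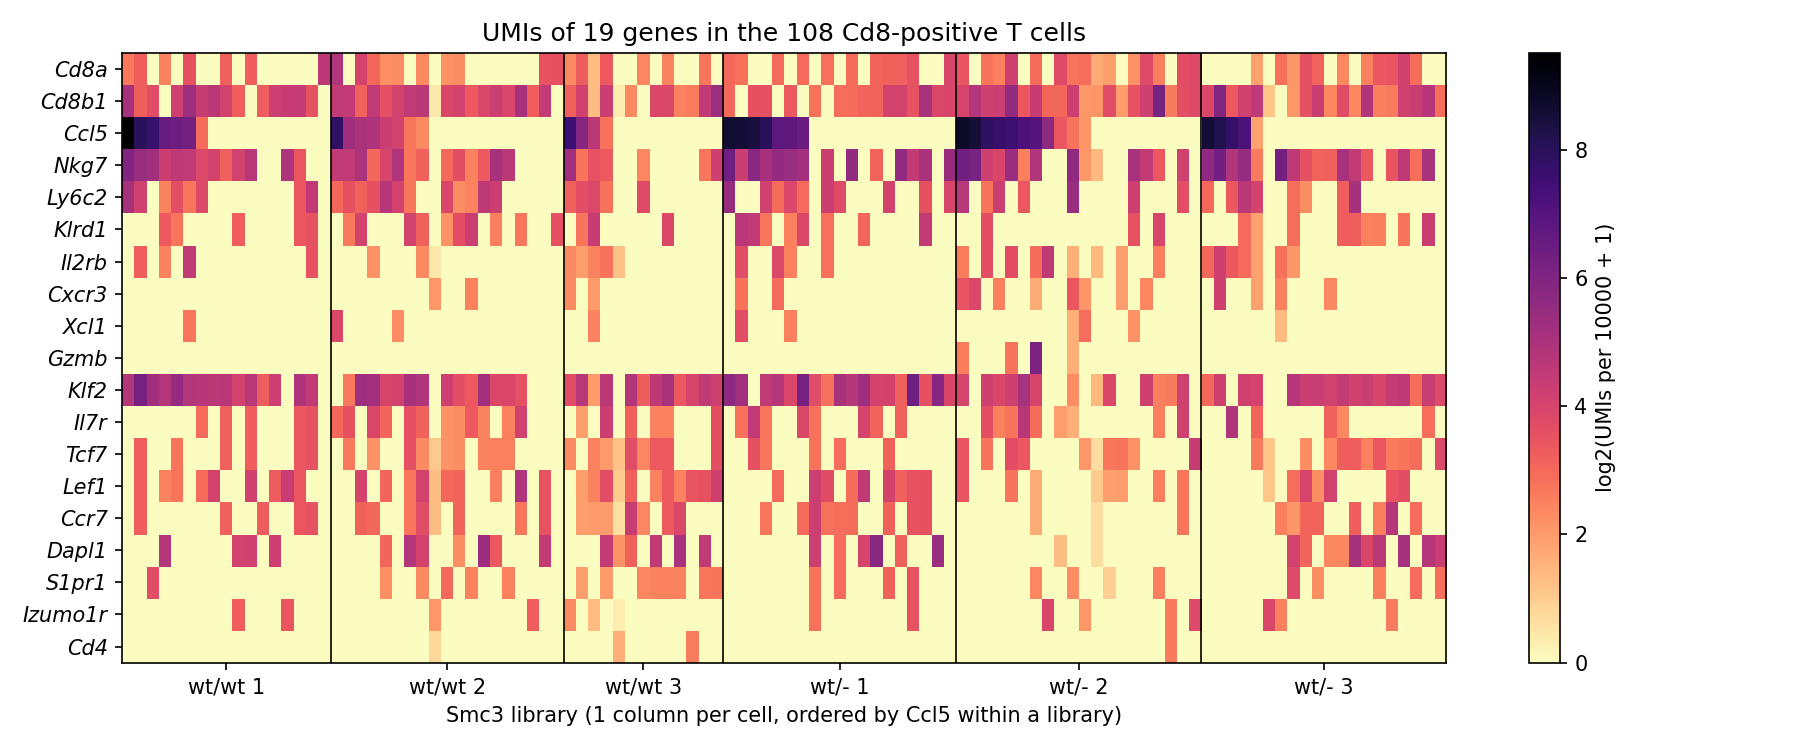
Level of 19 genes, as log2(UMIs per 10000 + 1), in each of the 108 Cd8-positive T cells, with 1 column per cell, grouped by library and ordered by Ccl5 within it. Dark Ccl5 columns stand at the left of each block, Klf2 and Nkg7 run across most cells, and in wt/- 2 the rows Ccr7 and Dapl1 are nearly empty while Gzmb appears in 4 cells.

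Wt/- 2 stood apart in this respect. Its 20 cells included 3 with at least 2 of the 3 naive genes, against 5 to 9 in each other library. The summed level of the naive list was 21.8 UMIs per 10000 there and 44.6 to 63.8 in the other libraries, and that of the memory and activation list was 104 against 34.4 to 55.5. S100a6, a calcium-binding protein of memory T cells, was in 14 cells of wt/- 2 and in 0 to 3 cells of each other library. S100a4 was in 7 of 20 cells there and in 1 elsewhere, Cxcr3 in 8 against 0 to 4, and Cxcr6 in 9 against 1 to 4. Other members of both lists did not stand apart. Ly6c2 (6.46 UMIs per 10000 in wt/- 2) and Bcl2 (4.58) lay within the range of the other libraries. So did Il7r (3.96) and Tcf7 (3.76) of the naive list. The 88 cells of the other 5 libraries held no Gzmb UMI. By counting error in the pooled cells alone, this allows a share of cells with a UMI of up to 3.41%.

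The Cd8-negative T cells of wt/- 2 showed the same order, with 15.2 against 29.4 to 44.4 for the naive and 57.9 against 26.6 to 39.0 for the memory list. Wt/- 2 was also the library with the most immunoglobulin RNA, 59.4% of all UMIs against 2.61% to 4.40%. In its Cd8-positive T cells the immunoglobulin share was 1.07%, against 0.0654% to 0.161%. Summed B-cell markers other than Cd79a and Ms4a1 were at 66.0 UMIs per 10000 there and at 10.3 to 15.5 elsewhere, and plasma cell markers at 49.2 against 1.05 to 2.80, with 2 of 8 B-cell markers outside the selection rule and 3 of 8 plasma cell markers at 0 in all 108 cells. Their part in the pattern was not tested.

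Markers of other cells the sort could hold were low. The natural killer and innate lymphoid list summed to 0.291 to 3.06 UMIs per 10000, with 5 of 9 genes at 0, and the dendritic cell list to 0 to 0.649, with 5 of 8 at 0. The myeloid list without the rule gene Lyz2 (0.438 to 2.91, 4 of 7 at 0) and the γδ T cell list (0 to 1.17, 4 of 7 at 0) were as low. Of the B-cell genes 3 were tested against the Cd8-negative T cells. Ighm (-0.73 ± 0.21), Igkc (-0.72 ± 0.45) and Cd74 (-1.13 ± 0.32) did not pass. Without the cells over 5000 UMIs all 3 passed, with -0.71 ± 0.21 for Ighm, -0.84 ± 0.26 for Igkc and -1.52 ± 0.23 for Cd74 (edgeR adjusted p = 0.00544, 0.00866 and 1.44e-07). In that fit 58 of all 709 tested genes were lower.

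The comparison of genotypes within the Cd8-positive T cells asked whether they differed between Smc3 wt/- and Smc3 wt/wt mice. In bulk sums of this kind, fewer cells of a state and less RNA per cell cannot be told apart. Smc3 itself (chr19:53600398-53645833) gave 1, 6 and 5 UMIs in the wt/wt libraries and 7, 10 and 4 in the wt/- libraries. The levels were 0.495, 1.05 and 0.503 UMIs per 10000 against 2.67, 0.940 and 1.17. They overlapped between genotypes, the gene was too low to be tested, and 3′ counts do not show whether an upstream part of the gene is deleted.

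None of 875 tested genes was called (0%) by edgeR, and 35 had an unadjusted p under 0.05. DESeq2 also called 0, with 15 at an unadjusted p under 0.05. With the cells over 5000 UMIs left out, edgeR tested 390 genes and called 0, with 13 at an unadjusted p under 0.05. The libraries of the genotypes did not overlap for 81 of the 875 genes (9.26%). On simulated counts for the same 875 genes, 15 of 200 changes of 1 on the log2 scale and 182 of 200 changes of 2 were recovered, so most changes of 1 would have been missed at this depth. Ccl5 had a log2 fold change, wt/- against wt/wt, of 0.40 with a 95% interval from -1.22 to 2.02. Without wt/wt 1 it was 2.30 ± 0.44 and was called (edgeR adjusted p = 0.0243). For Klf2 it was 0.06 (-1.14 to 1.26) and for Nkg7 1.05 (-0.13 to 2.24, edgeR adjusted p = 0.958). As a mean over cells, Nkg7 did not overlap between genotypes, with 6.77 to 18.6 UMIs per 10000 in wt/wt and 19.3 to 27.8 in wt/-.

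The smallest p-values belonged to S100a11 and Hspd1. S100a11, a calcium-binding protein, had summed levels of 89.7, 125 and 154 CPM (counts scaled to library size) in the wt/wt libraries and 271, 639 and 315 in the wt/- libraries. The groups did not overlap, but the log2 fold change of 1.62 ± 0.42 did not pass (edgeR adjusted p = 0.839). Hspd1, the mitochondrial chaperonin HSP60, had 269, 887 and 813 CPM against 116, 274 and 222 (-1.74 ± 0.45, edgeR adjusted p = 0.839). Hspd1 was called with the replicate number as a block (-1.79 ± 0.32, edgeR adjusted p = 0.0358), a pairing that was not established. A single cell held 100% of its UMIs in wt/wt 2, and another 93.1% in wt/wt 3. As a mean over cells, Hspd1 levels overlapped, with 1.07 to 2.92 UMIs per 10000 in wt/wt and 0.801 to 2.14 in wt/-. Both Hspd1 and S100a11 were too low for the test once the cells over 5000 UMIs were left out.

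Whether the difference between Cd8-positive and Cd8-negative T cells depended on the genotype was tested as an interaction. None of 1463 genes was called (0%) by edgeR, and 69 had an unadjusted p under 0.05. DESeq2 also called 0, with 12 below that value. For Nkg7 the interaction was 1.24 on the log2 scale, with a 95% interval from -0.25 to 2.73, and for Ccl5 it was 0.65 (-1.29 to 2.60).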

How the data were processed

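The authors prepared 10x Genomics Chromium 3′ v2 libraries of sorted splenic cells, 1 per sample, and deposited raw counts (UMIs per gene and barcode) made with Cell Ranger 3.0.2, mm10 per the submitters' processing notes. Coordinates are those of GENCODE M21 (GRCm38), in which 30934 of 31053 features were found. Groups and replicate numbers came from the sample titles. The members and all gene lists were chosen with earlier results of these data known.

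Cells were selected as described above. Doublets were not removed in the main analysis. In an alternative the highest Scrublet scores (scanpy 1.11.5), 0.8% per 1000 barcodes, were removed. UMIs were summed per library and class, kept by filterByExpr and tested with the quasi-likelihood test of edgeR 4.0.16 in R 4.3.3 (TMM, Benjamini-Hochberg over all tested genes at 0.05, libraries with at least 10 cells of a class). The class fit had the library as a term and the genotype fit no covariate. DESeq2 1.42.0 was an alternative. Genes of the selection rule were left out of the class test but were among the 875 genes of the genotype fit, from which none of their values is given. Shares were compared by exact permutation over libraries (scipy 1.17.1), and thinned shares drew 1000 UMIs per cell, leaving out 11 of 108 Cd8-positive T cells. Binomial intervals and the limits for a count of 0 (3 counts) cover counting error only. Besides listed genes, up to 10 called genes per direction were named, by smallest p, with the same direction in the sums of every library. Genotype genes were those of smallest p.

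Deviations of same-numbered libraries of the genotypes correlated with r = 0.439, 0.271 and 0.104 over genes for numbers 1, 2 and 3. Unlike numbers gave -0.370 to 0.310, the highest for wt/wt 3 with wt/- 2. Only number 1 stood above all of them, so pairing by number was not established. It was kept as an alternative, and the blocked fit is given where it changed a call. In simulated counts, 167 of 200 log2 changes of 1 and 199 of 200 of 2 were recovered in the class fit of 1085 genes. Cells over 5000 UMIs and sex (Xist UMIs) were examined in alternatives added after seeing the data. A gene of the naive and homing list is not reported here and was left out of the list's counts and sums.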

Additional observations from a re-analysis of the deposited data

How the results depend on the processing

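The 40 genes that differed between Cd8-positive and Cd8-negative T cells kept their direction in each alternative in which they were tested, but the number of calls did not hold. It was 115 with no low-count filter, 155 with doublets removed, 74 with at least 2 Cd8 UMIs (5 libraries, since wt/wt 3 kept 8 cells, and 49 calls without wt/wt 3 alone), 187 without cells over 5000 UMIs, 20 with libraries of at least 20 cells of both classes (2 libraries), 21 without the library term and 19 against Cd8-negative T cells with a Cd4 UMI. Leaving out 1 library gave 13 to 49 calls: 24 without wt/wt 1, 13 without wt/wt 2, 23 without wt/- 1 and 15 without wt/- 2. DESeq2 gave an adjusted p to 160 of the 1085 genes, of which 37 were higher and 3 lower, and all 16 of the 40 genes that had one were called again. The split was 14 higher and 22 lower with RLE size factors, 40 and 20 after thinning, 129 and 58 without cells over 5000 UMIs, 113 and 42 with doublets removed and 19 and 96 with no filter. Nkg7 and Ifi27l2a were called in all 21 alternatives, Izumo1r in all 20 that gave it an adjusted p, Ccl5 in 20 of 21 and Klf2 in 14 of 21. Over the named genes 430 values kept their call and 139 lost it, and none reversed.

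For the genotype, 7 genes were called with no low-count filter (Igha, Jchain, Igkc, S100a4, S100a6, Lgals3 and Gzmb, all higher in wt/-). S100a4, S100a6 and Gzmb are among the genes by which wt/- 2 stood apart, and 1 cell held 31 of the 34 Gzmb UMIs. Leaving out 1 library gave 0 to 6 calls, the 6 without wt/wt 1 (Hspd1, Hspe1, Cct3 and Npm1 lower, S100a6 and Ccl5 higher). The replicate block gave 1 call, Hspd1. All 82 ribosomal protein genes had a negative log2 fold change, with a median of -0.21 against -0.07 over all 875 genes, but none was called, and up to 36 had the other sign (without wt/- 1). The interaction had 0 calls in each alternative run. The difference in the share of retained barcodes was -0.416 to 0.241 percentage points when 1 library was left out, positive only without wt/wt 1, and -0.185 with the replicate block. The difference in the share of T cells stayed negative, from -7.75 to -2.88, the latter without wt/- 2, and was -5.69 with the block. Of 34 shares of cells with a UMI, 16 moved by more than the spread between libraries without thinning or with 1500 UMIs.

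A genotype fit with at least 20 cells per library was not run, because no wt/wt library had 20. No library had fewer than 10 cells, so the fit of all libraries is the reported one. Each library held 13 to 20 cells and 22298 to 76630 UMIs, which left 875 genes for the genotype test. The sex of the mice differed between libraries (Xist UMIs in wt/wt 3, wt/- 1 and wt/- 3), and with it as a term no gene was called. The cause of these changes was not tested.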
